A study of Mus musculus with 6 samples.

Results

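Genes of amino acid supply and of the transcription factor ATF4 were examined in oncogene-expressing mouse keratinocytes kept with or without a blocker of the interleukin-1 (IL-1) receptor. The 41 genes were taken by name: every probe whose gene name in the scanner files equalled a listed symbol and that was no control spot. All 41 were present, with 62 of the 41174 probes and among 27845 gene names, and a gene with several probes is given by its brightest, averaged over the 6 arrays. The names on the list, and the Anakinra-against-PBS comparison they are shown in, were chosen with earlier results of these arrays known. Differences between the groups are therefore given below as a description, calls are those of a fit over all 16593 tested genes, and no p-value is attached to a listed gene.

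The samples were primary keratinocytes from the epidermis of newborn wild-type mice, all transduced with the oncogene v-ras-Ha by a virus at 10 particles per cell. To 3 cultures Anakinra, a recombinant IL-1 receptor antagonist, was given at 5 ug/ml 5 hours after transduction; the cultures were kept 3 more days, with the drug renewed after 2 days. The 3 PBS cultures received the vehicle. Every culture carried the oncogene, so no value here compares ras with its absence, and the labels say neither whether replicates came from separate animals nor whether hair follicle buds, isolated alongside, remained in the cultures. The comparison asks which transcripts in ras-expressing keratinocytes depend on IL-1 receptor signalling.

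ATF4 is a transcription factor whose mRNA is translated more efficiently when the initiation factor eIF2 is phosphorylated, as happens when amino acids run short or unfolded protein accumulates in the endoplasmic reticulum. Growth signalling through mTORC1 raises its translation as well. With C/EBP-family partners it binds a short element in the promoters of genes for amino acid synthesis, amino acid transport and folate-linked one-carbon metabolism. These pathways feed protein, nucleotide and glutathione synthesis in proliferating epithelial cells. Because much of this control acts on translation and protein stability, the mRNA of Atf4 itself reports on only a part of it.

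The binding element has the core TGATGNAA, and the listed genes whose RefSeq promoter windows hold it are shown because they give the sequence side of the list. RefSeq windows of assembly GRCm38.p6, running from 250 bases before to 50 after an annotated start, were available for 33 of the 41 genes. The 8 without a window were Aldh1l2, Cth, Tdh, Slc1a5, Slc7a3, Slc7a5, Slc38a1 and Eif4ebp1. In 24 of the 33 a window matched the outermost annotated start of the gene. The core was searched on both strands and occurred in 9 of the 33, or 27.3%, against 4.51% of all 27025 genes with a window. Names were put on the list as amino acid or ATF4 genes, so this share is a description and carries no test. Where a gene had several windows, any of them could hold the core. Each match is printed below with 11 bases on either side, read on the strand that spells the core, which is in capitals.
Asns, chr6:7693214-7693243, minus strand: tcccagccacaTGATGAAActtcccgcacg
Chac1, chr2:119351038-119351067, minus strand: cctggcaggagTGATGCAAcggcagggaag
Got1, chr19:43524689-43524718, plus strand: ggaggcttgtaTGATGCAAccaatgcaatg
Nupr1, chr7:126625562-126625591, plus strand: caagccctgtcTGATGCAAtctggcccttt
Pck2, chr14:55540152-55540181, minus strand: ctgtaagatacTGATGTAActttgaaggct
Pycr1, chr11:120643833-120643862, minus strand: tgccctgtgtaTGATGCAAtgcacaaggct
Slc1a4, chr11:20332699-20332728, plus strand: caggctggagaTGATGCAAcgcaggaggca
Trib3, chr2:152344028-152344057, plus strand: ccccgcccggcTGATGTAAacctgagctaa
Vldlr, chr19:27216809-27216838, minus strand: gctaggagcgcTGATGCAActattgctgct

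Most of these matches read TGATGCAA, while Asns has TGATGAAA and both Pck2 and Trib3 have TGATGTAA. Counted from the annotated start, the match began at position -103 in both Pck2 and Pycr1, at -102 in Got1 and at -23 in Asns. The cAMP response element TGACGTCA, a palindrome that the ATF family also binds, was in the windows of 0 of the 33 genes and of 2.03% of all genes. A match to this motif cannot also be a match to the core, since they differ at the fourth base. The median difference between the groups, given in log2 units and explained below, was -0.36 for the 9 genes with the core and -0.35 for the 24 without it. A match is a run of letters in a window, not a measured binding site.

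Among the genes that passed the threshold described below, Tdh, Slc1a5 and Slc7a3 had no window to search. The whole windows of the 2 genes that both held the core and passed it, and that of Asns, a much studied ATF4 target, follow. They are given on the gene's own strand, with the core in capitals on whichever strand it lies.
Pck2, chr14:55540016-55540315, plus strand: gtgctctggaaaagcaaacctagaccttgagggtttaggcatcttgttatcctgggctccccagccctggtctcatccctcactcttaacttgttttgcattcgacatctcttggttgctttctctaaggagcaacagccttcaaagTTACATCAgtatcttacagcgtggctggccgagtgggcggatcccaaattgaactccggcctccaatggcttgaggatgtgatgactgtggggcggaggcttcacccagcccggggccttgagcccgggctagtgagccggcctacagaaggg
Pycr1, chr11:120643699-120643998, minus strand: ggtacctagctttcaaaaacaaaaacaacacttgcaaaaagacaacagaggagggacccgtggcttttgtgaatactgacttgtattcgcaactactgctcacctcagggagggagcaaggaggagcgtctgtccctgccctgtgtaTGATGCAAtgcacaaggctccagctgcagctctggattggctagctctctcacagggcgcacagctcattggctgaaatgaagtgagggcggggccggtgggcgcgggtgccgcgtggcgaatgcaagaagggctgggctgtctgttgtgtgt
Asns, chr6:7693160-7693459, minus strand: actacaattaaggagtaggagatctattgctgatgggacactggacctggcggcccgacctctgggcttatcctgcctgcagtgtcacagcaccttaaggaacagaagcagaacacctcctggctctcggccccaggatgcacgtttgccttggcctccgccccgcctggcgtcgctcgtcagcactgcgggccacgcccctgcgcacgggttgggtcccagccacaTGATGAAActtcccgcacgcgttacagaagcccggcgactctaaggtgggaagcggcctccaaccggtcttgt

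**Figure D1:**
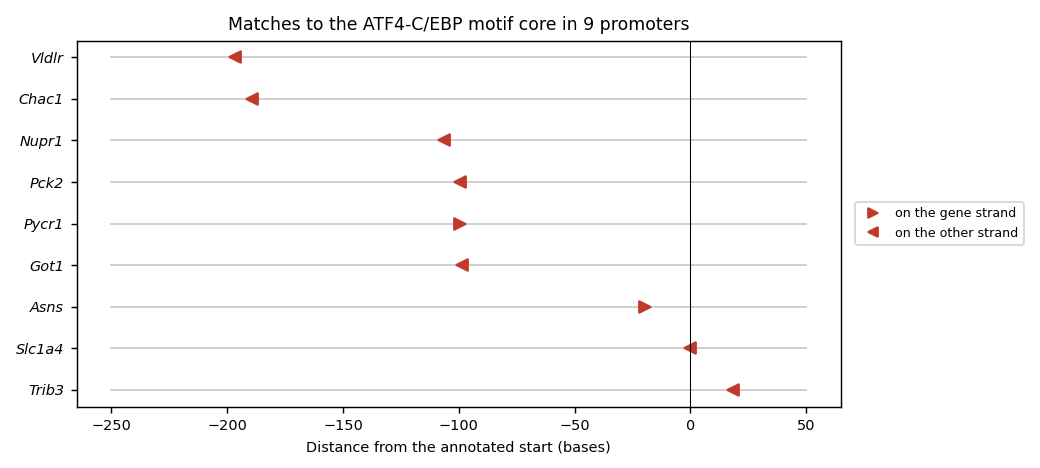
Positions of the TGATGNAA core in the 9 promoter windows that hold it, as distance in bases from the annotated start (horizontal axis), 1 gene per line; arrowheads point along the strand that spells the core. The matches of Nupr1, Pck2, Pycr1 and Got1 lie close together, between positions -110 and -95, and those of Slc1a4 and Trib3 lie at or after it.

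Levels below are log2 intensities on a scale where 0 is the 75th percentile of the same array, and a difference is the mean of the Anakinra arrays minus the mean of the PBS arrays. All 41 genes were well above background on all 6 arrays, so none entered through 1 group alone. Across all probes, 55.6% to 86.5% of spots were well above background on the Anakinra arrays and 62.5% to 71.0% on the PBS arrays. The highest share belonged to Anakinra 2, and arrays correlated at 0.957 to 0.983 within Anakinra and at 0.995 to 0.997 within PBS. The 6 arrays lay on 2 slides: Anakinra 1 with PBS 2 and PBS 3 on slide 1, and Anakinra 2 and Anakinra 3 with PBS 1 on slide 2.

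Nearly the whole list was slightly lower with Anakinra, and 1 gene, the threonine dehydrogenase Tdh, was much higher. The difference was below 0 in 39 of the 41 genes, against 49.4% of all tested genes, and its median was -0.36, a 1.29-fold lower signal, against 0.00 over all tested genes. In 33 of the 41 every Anakinra value lay below every PBS value, a pattern seen in 15.1% of all tested genes, and in Tdh every Anakinra value lay above, as in 11.6% of all. In the limma fit, at an adjusted p under 0.05, 6 of the 41 fell against 0.826% of all tested genes (Shmt2, Pycr1, Pck2, Slc1a5, Slc7a3 and Gdf15), and 1 rose against 0.940% (Tdh). Both directions together gave 7 of the 41, against 1.77% of all tested genes. The differences were small for most: 28 lay between -0.6 and -0.2, and 12 lay under -0.5, as did 3.34% of all genes.

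With the slide as a block, limma called 0 of the 41 in either direction, where 0.121% of all genes were called higher and 0.253% lower. An unadjusted p under 0.05 was found for 28 of the 41 and 13.0% of all tested genes in that fit, and for 30 of the 41 and 16.5% of all without the block. The median difference in that fit was -0.38. The calls also changed when 1 array was left out: 0 of the 41 were called without Anakinra 1 or without any one of the PBS arrays. Over all tested genes the calls in those fits dropped as well, from 156 higher and 137 lower to at most 43 and 41. With any 1 array left out, the median difference of the 41 ran from -0.41 to -0.32. When arrays were scaled by their medians or dim probes were kept, 0 of the 41 fell, and 42 and 29 of all tested genes did. In total RNA of a culture, fewer cells that express a gene and less RNA per cell cannot be told apart.

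**Figure D2:**
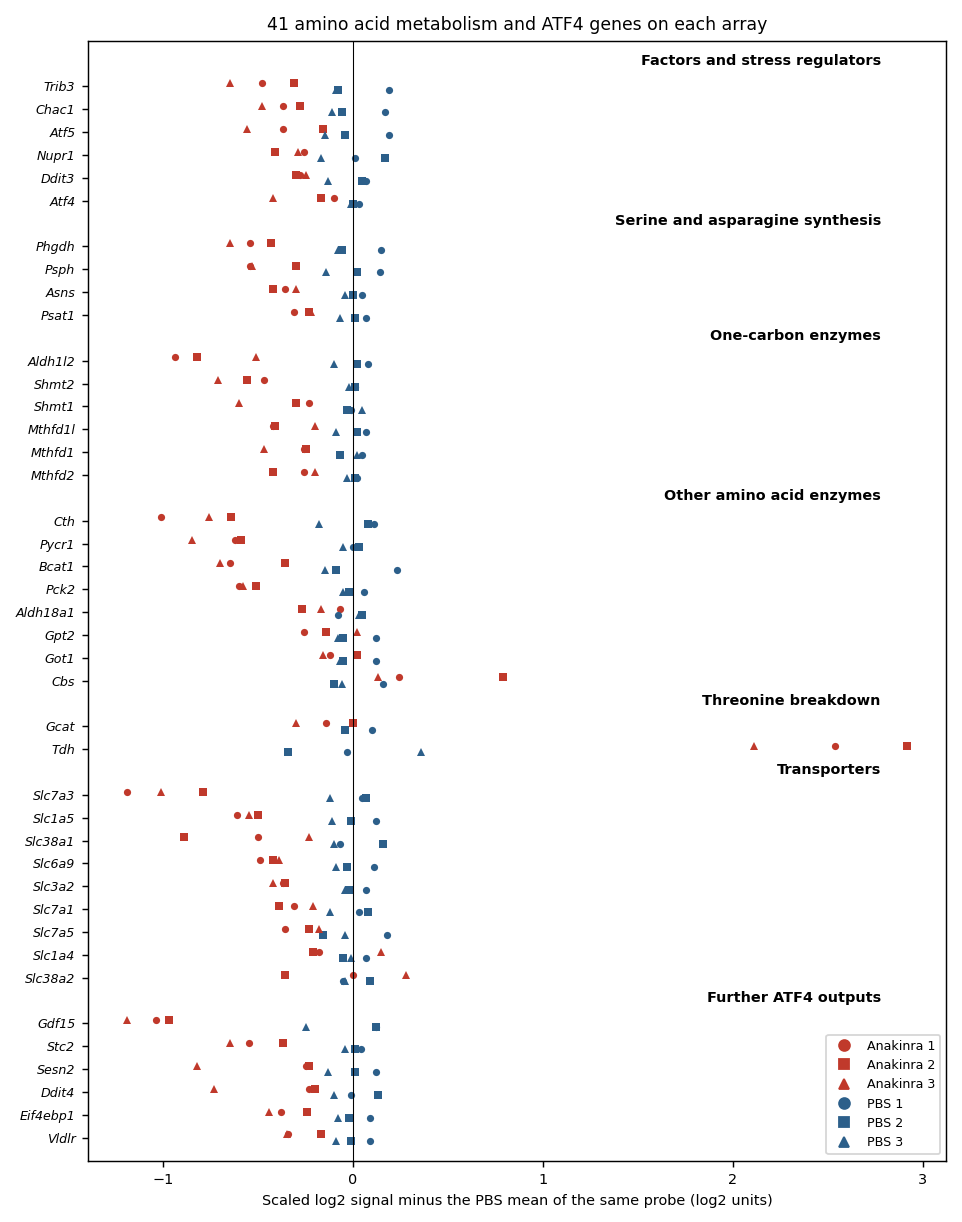
Scaled log2 signal of each of the 41 genes on each array minus the PBS mean of the same probe (horizontal axis, log2 units), grouped by role; red symbols are Anakinra arrays and blue symbols PBS arrays, with a shape for each replicate. Red symbols lie left of all blue ones in 33 genes, and Tdh lies far to the right at 2.53.

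Atf4 and the stress regulators around it were all lower, and none passed the threshold. Atf4 measured 5.30, 5.23 and 4.98 on Anakinra arrays 1, 2 and 3, against 5.43, 5.40 and 5.39 on PBS arrays 1, 2 and 3, a difference of -0.23 ± 0.10 (SE from the fit, n = 3 per group). The PBS arrays were almost equal, and Anakinra 3 was the lowest array by a margin. Atf5, a close relative of ATF4, measured 5.91, 6.12 and 5.72 with Anakinra and 6.47, 6.24 and 6.13 with PBS, a difference of -0.36 ± 0.14, where Anakinra 2 and PBS 3 were nearly level. Ddit3, which encodes the stress factor CHOP, measured 2.67, 2.65 and 2.70 with Anakinra and 3.02, 3.00 and 2.82 with PBS, a difference of -0.27 ± 0.08. Its 3 Anakinra values lay within 0.05 of each other and below all PBS values.

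Trib3 encodes a pseudokinase that ATF4 induces and that restrains it in turn. It measured 4.05, 4.22 and 3.88 with Anakinra and 4.72, 4.45 and 4.44 with PBS, a difference of -0.48 ± 0.13, and its other probe differed by -0.64. Chac1, which encodes a glutathione-degrading enzyme, measured 4.08, 4.17 and 3.97 with Anakinra and 4.62, 4.39 and 4.34 with PBS, a difference of -0.38 ± 0.10. In both genes the groups did not overlap, PBS 1 was the highest array and Anakinra 3 the lowest. Nupr1, a small stress-induced nuclear protein, averaged 5.86 ± 0.08 with Anakinra and 6.18 ± 0.17 with PBS (SD, n = 3 each), a difference of -0.33. All 6 genes of this role had separate groups, and their median difference was -0.34.

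The enzymes that make serine and asparagine were lower by similar amounts, with none past the threshold. Asns, which makes asparagine from aspartate and glutamine, measured 6.17, 6.11 and 6.23 with Anakinra and 6.58, 6.53 and 6.49 with PBS, a difference of -0.36 ± 0.07. Phgdh, the entry enzyme of serine synthesis, measured 5.73, 5.84 and 5.62 with Anakinra and 6.42, 6.21 and 6.19 with PBS, a difference of -0.54 ± 0.10. Its 3 probes differed by -0.58 to -0.51, so the gene's value did not hang on the probe chosen. Psat1, the next enzyme of the route, measured 4.40, 4.48 and 4.49 with Anakinra and 4.78, 4.72 and 4.64 with PBS, a difference of -0.25 ± 0.07. Psph, which completes it, measured 3.96, 4.20 and 3.97 with Anakinra and 4.64, 4.52 and 4.36 with PBS, a difference of -0.46 ± 0.11. The groups were separate in all 4 genes, most narrowly in Psat1 and Psph, whose highest Anakinra and lowest PBS values lay close together.

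One-carbon enzymes, which move the carbon of serine through folate, were lower in all 6 cases, and Shmt2 fell. Shmt2, the mitochondrial enzyme that splits serine into glycine and a one-carbon unit, measured 4.08, 3.99 and 3.84 with Anakinra and 4.56, 4.56 and 4.53 with PBS. Its difference was -0.58 ± 0.08, or 1.50-fold, and the PBS arrays were nearly identical. Mthfd2, the next mitochondrial enzyme, measured 2.49, 2.33 and 2.55 with Anakinra and 2.77, 2.76 and 2.72 with PBS, a difference of -0.29 ± 0.08. Mthfd1l, which releases formate from mitochondria, differed by -0.34 ± 0.09. The cytosolic enzymes Shmt1 and Mthfd1 differed by -0.38 ± 0.11 and -0.33 ± 0.09. Their other probes differed by -0.16 for Shmt1 and -0.19 for Mthfd1. The 2 probes of Mthfd1 were nearly equal in signal, so which of them was the brightest changed when 1 array was left out. The differences then ran from -0.26 to -0.14, a range that mixes the 2 probes.

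Aldh1l2, a mitochondrial enzyme of folate metabolism, had the largest difference of this role without passing. It measured -0.97, -0.85 and -0.54 with Anakinra and 0.05, -0.01 and -0.13 with PBS, a difference of -0.76 ± 0.13, and its other probe differed by -0.59. The spread among its Anakinra arrays was wide, with Anakinra 3 nearest to PBS, which is the opposite order to that of Shmt2. On the other probe Anakinra 2 was nearest, at -1.75 beside PBS 2 at -1.72, so this order depended on the probe.

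Among the other biosynthetic enzymes Pck2 and Pycr1 fell, and neither gene of the transsulfuration pair was called. Pck2, the mitochondrial phosphoenolpyruvate carboxykinase, measured 3.53, 3.62 and 3.55 with Anakinra and 4.19, 4.11 and 4.08 with PBS, a difference of -0.56 ± 0.06, or 1.48-fold. It had the smallest standard error of the 6 genes that fell, with tight values in both groups. Pycr1, which catalyses the last step of proline synthesis, measured 0.60, 0.63 and 0.37 with Anakinra and 1.22, 1.25 and 1.17 with PBS, a difference of -0.68 ± 0.09, or 1.61-fold. Aldh18a1, which begins proline synthesis, differed by -0.17 ± 0.08 with overlapping groups, since Anakinra 1 at 2.03 lay just above PBS 1 at 2.02.

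Cth, cystathionine gamma-lyase, releases cysteine in transsulfuration and had the third-largest decrease of the list. It measured 2.09, 2.46 and 2.34 with Anakinra and 3.21, 3.18 and 2.92 with PBS, a difference of -0.81 ± 0.14 and no call. The groups lay far apart, with Anakinra 1 the lowest array. Cbs, cystathionine beta-synthase, which acts just before Cth, measured -2.60, -2.05 and -2.71 with Anakinra and -2.68, -2.94 and -2.90 with PBS, a difference of 0.39 ± 0.20. Its groups overlapped and Anakinra 2 alone lay well above the rest; without that array the difference was 0.19. Bcat1, the cytosolic branched-chain aminotransferase, averaged 0.12 ± 0.18 with Anakinra and 0.69 ± 0.20 with PBS (SD, n = 3 each), with separate groups and both of its probes lower, at -0.64 and -0.57. The transaminases Got1 and Gpt2 differed by -0.08 ± 0.09 and -0.12 ± 0.10 with overlapping groups. For Got1 the arrays read 0.08, 0.22 and 0.04 with Anakinra and 0.32, 0.15 and 0.13 with PBS.

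Threonine breakdown held the list's one large increase, in a single step of its route. Tdh, the mitochondrial enzyme that oxidises threonine, measured 0.42, 0.80 and -0.01 with Anakinra and -2.15, -2.46 and -1.76 with PBS. The difference was 2.53 ± 0.27, a 5.76-fold higher signal, and the lowest Anakinra array was far above the highest PBS array. Its only probe lies at chr14:62446600-62446659 of mm8 on the minus strand. Gcat, the partner enzyme that splits the product into glycine and acetyl-CoA, averaged 2.77 ± 0.15 with Anakinra and 2.92 ± 0.08 with PBS, a difference of -0.15 ± 0.10 with overlapping groups. The 2 enzymes of the route thus did not move together.

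Amino acid transporters were lower in 9 of 9 cases by the probe used, and Slc7a3 and Slc1a5 fell. Slc7a3, a carrier of arginine and lysine, measured 1.21, 1.61 and 1.39 with Anakinra and 2.45, 2.47 and 2.28 with PBS, a difference of -1.0 ± 0.13, or 2.00-fold. Slc1a5, the glutamine carrier ASCT2, measured 1.55, 1.66 and 1.61 with Anakinra and 2.28, 2.15 and 2.05 with PBS, a difference of -0.55 ± 0.08. In both genes the groups stood far apart relative to the spread within each. Slc3a2 and Slc7a5 form the large neutral amino acid carrier CD98. The heavy chain Slc3a2 averaged 4.72 ± 0.03 with Anakinra and 5.10 ± 0.06 with PBS, a difference of -0.38, and the light chain Slc7a5 averaged 3.28 ± 0.09 with Anakinra and 3.54 ± 0.17 with PBS (SD, n = 3 each), a difference of -0.25. Both chains of the carrier were lower, without a call.

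The glycine carrier Slc6a9 averaged 3.28 ± 0.05 with Anakinra and 3.71 ± 0.10 with PBS (SD, n = 3 each), a difference of -0.43. Slc1a4, the neutral carrier ASCT1, measured 0.08, 0.05 and 0.41 with Anakinra and 0.33, 0.21 and 0.25 with PBS, a difference of -0.08 ± 0.12, with Anakinra 3 above every PBS array. Its other, slightly dimmer probe measured -0.32, -0.37 and -0.40 with Anakinra and 0.02, -0.15 and -0.03 with PBS. That probe differed by -0.31, with separate groups. Slc38a2, the inducible carrier SNAT2, measured 4.81, 4.45 and 5.09 with Anakinra and 4.76, 4.90 and 4.77 with PBS, a difference of -0.03 ± 0.18. Its Anakinra arrays spread on both sides of the PBS arrays, and the sign of its difference turned under several other ways of processing.

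Probes of 1 gene mostly agreed in the sign of the difference. Of the 15 listed genes with several probes, 13 had every probe on the same side of 0. All 5 probes of Slc38a1, the carrier SNAT1, were lower, from -0.65 to -0.35. The probe used gave -0.53 with an Anakinra spread from 0.75 to 1.41. The probe at -0.65 gave 1.06, 0.90 and 1.15 with Anakinra and 1.76, 1.68 and 1.63 with PBS. Groups overlapped on the probe at -0.35, where Anakinra 3 at -0.43 lay above PBS 3 at -0.48. They also overlapped on the probe at -0.44, where Anakinra 3 at -0.41 lay above PBS 1 at -0.44. The exceptions were Slc38a2, whose 4 probes ran from -0.17 to 0.45, and Slc7a1, whose probes gave -0.30 and 0.10. For Slc7a1, the arginine carrier CAT1, the probe at 0.10 measured -4.05, -3.88 and -4.52 with Anakinra and -4.13, -4.41 and -4.20 with PBS, and its groups overlapped.

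Among the further genes that ATF4 induces, the secreted cytokine Gdf15 had the largest decrease of the list. Gdf15 measured 0.70, 0.77 and 0.55 with Anakinra and 1.86, 1.86 and 1.49 with PBS, a difference of -1.07 ± 0.13, or 2.09-fold, with its single probe at chr8:73558561-73558620 of mm8. The secreted glycoprotein Stc2 differed by -0.53 ± 0.09, the translation repressor Eif4ebp1 by -0.35 ± 0.09 and the lipoprotein receptor Vldlr by -0.28 ± 0.09. None of these 3 passed, and each had separate groups by the probe used. On the other probe of Eif4ebp1, at -0.56, Anakinra 1 at -1.78 lay above PBS 1 at -1.86. On the other probe of Vldlr, at -0.14, Anakinra 3 at -0.81 lay above every PBS value.

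Sesn2 and Ddit4, both stress-induced inhibitors of mTORC1, differed by -0.44 ± 0.19 and -0.39 ± 0.17, and in each Anakinra 3 was the array apart. Sesn2 stood at 2.65 and 2.67 on Anakinra 1 and 2 but at 2.08 on Anakinra 3, and Ddit4 at 5.29 and 5.32 but at 4.79. Over all 6 genes of this role the median on Anakinra 3 was 0.69 below the PBS mean, or -0.69, against -0.35 and -0.24 on Anakinra 1 and 2.

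**Figure D3:**
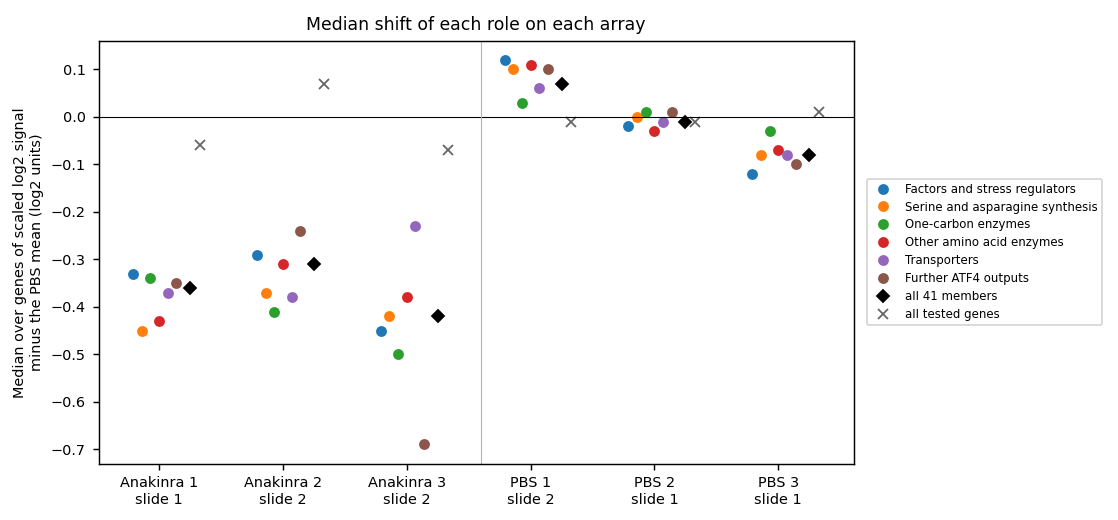
Median over the genes of a role of the scaled log2 signal minus each gene's PBS mean (vertical axis, log2 units) on each array, with the medians over all 41 genes (diamonds) and over all tested genes (crosses); the pair of threonine genes is not drawn. Every role lies between -0.69 and -0.23 on the Anakinra arrays, and the crosses lie between -0.07 and 0.07.

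The lower values were present on each Anakinra array. The median over the 41 genes of the signal minus the PBS mean was -0.36, -0.31 and -0.42 on Anakinra 1, 2 and 3, against 0.07, -0.01 and -0.08 on PBS 1, 2 and 3. Over all tested genes the same medians were -0.06, 0.07 and -0.07 with Anakinra and -0.01, -0.01 and 0.01 with PBS. The count of the 41 genes below their PBS mean was 39, 38 and 36 on Anakinra 1, 2 and 3, and 6, 22 and 37 on PBS 1, 2 and 3. Over all tested genes the shares below it were 61.9%, 40.9% and 57.4% with Anakinra and 54.4%, 54.9% and 44.8% with PBS. PBS 3 thus had as many listed genes below the PBS mean as the Anakinra arrays, by a median of -0.08, and 74.5% of the brightest 4148 tested genes lay below it there.

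The listed genes also differed among the PBS arrays in a shared order, which does not use the treatment. PBS 1 was the only PBS array on slide 2, so its place in that order cannot be told apart from a slide difference. PBS 1 held the highest of the 3 PBS values in 30 of the 41 genes and PBS 3 the lowest in 33. Over all tested genes PBS 1 was highest in 34.0% and PBS 3 lowest in 29.2%, and over the brightest 4148 tested genes the shares were 54.5% and 55.3%. Anakinra 3 was the lowest Anakinra array in 21 of the 41, against 41.8% of all tested genes and 57.3% of the brightest 4148. Anakinra 2 was the highest in 23, against 53.0% and 38.7%. The median standard deviation over the listed genes was 0.13 with Anakinra and 0.10 with PBS, against 0.18 and 0.10 over all tested genes.

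Signal strength matters for this list, because bright genes as a whole were slightly lower with Anakinra. With the tested genes put into 4 equal classes of mean signal, 29 of the 41 lay in the brightest class, 9 in the next, 3 in the one below and none in the dimmest. In the brightest class all 4148 tested genes had a median difference of -0.08, with 70.4% below 0 and 28.8% with every Anakinra value below every PBS value. The 29 listed genes there had a median of -0.36, with 29 of 29 below 0 and 25 with separate groups. Of these, 16 lay under -0.35, the 5th percentile of that class, and 4 were called lower, against 0.916% of the class. In the next class the 9 listed genes had a median of -0.38 and 2 were called lower, against a median of -0.02 and 1.08% over all genes of that class.

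**Figure D4:**
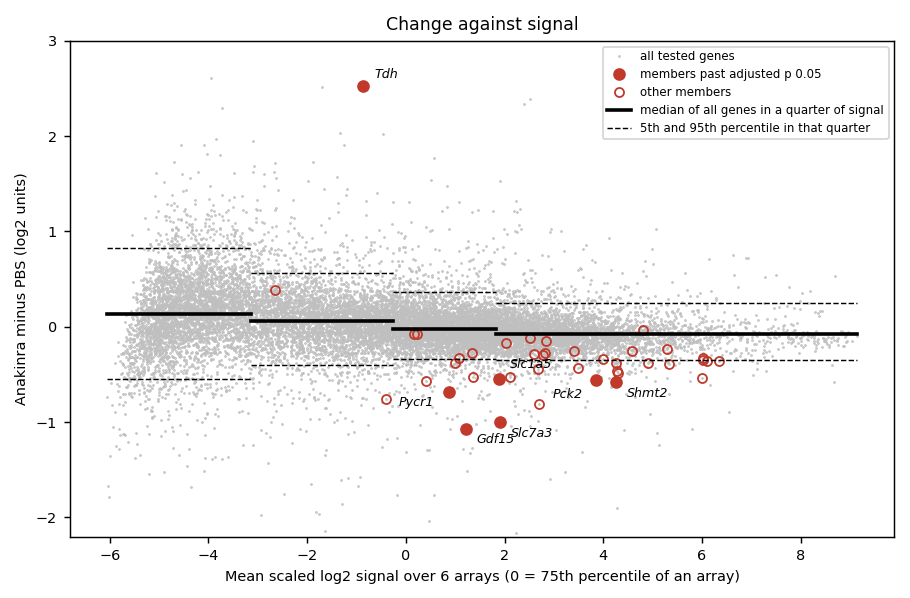
Difference of Anakinra minus PBS (vertical axis, log2 units) against mean scaled log2 signal over the 6 arrays (horizontal axis) for all tested genes (grey), with the 41 listed genes in red, filled where the limma adjusted p was under 0.05; solid lines are medians and dashed lines the 5th and 95th percentiles within 4 equal classes of signal. In the brightest class 16 listed genes lie under the lower dashed line and in the next class 5 do, while Tdh stands at 2.53; 16 genes beyond the axis limits are not drawn.

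Within each slide the direction was the same for nearly the whole list. The difference was below 0 in 39 of the 41 genes within slide 1 and in 38 within slide 2, and in both slides for 38. The median was -0.29 within slide 1 and -0.44 within slide 2, against -0.06 and 0.05 over all tested genes. Tdh differed by 2.53 within slide 1 and by 2.55 within slide 2, Gdf15 by -0.98 and -1.20, Slc7a3 by -1.16 and -0.95, and Pck2 by -0.57 and -0.61. Shmt2 differed by -0.46 and -0.65, Pycr1 by -0.61 and -0.72, and Slc1a5 by -0.55 and -0.64. Atf4 differed by -0.09 within slide 1 and by -0.32 within slide 2, and Sesn2 by -0.19 and -0.64, so the low value of Anakinra 3 weighed on slide 2 in these genes. Slide 1 held a single Anakinra array and slide 2 a single PBS array, and limma called 0 of the 41 within either, with 20 and 2 at an unadjusted p under 0.05, against 16.3% and 3.15% of all tested genes.

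**Figure D5:**
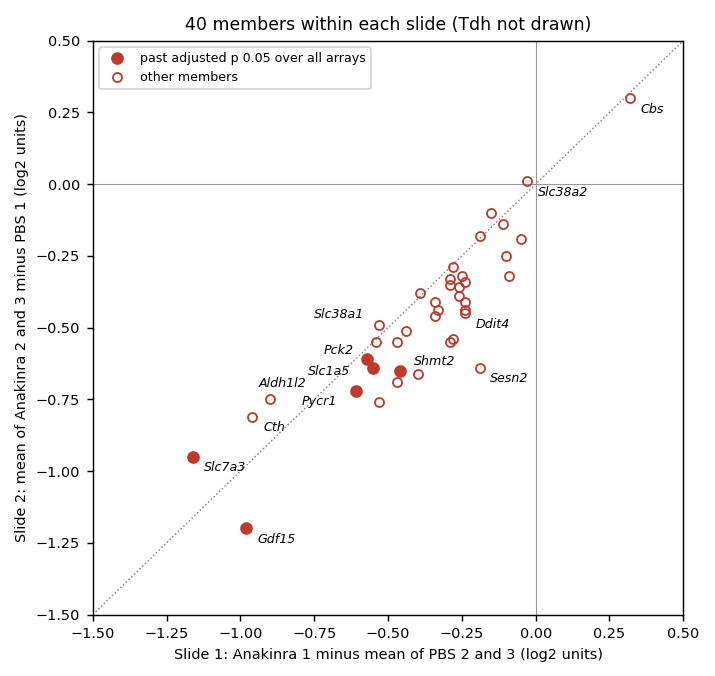
Difference within slide 2 (vertical axis) against that within slide 1 (horizontal axis), in log2 units, for 40 of the 41 genes, with filled symbols for the 6 that fell over all arrays; the dotted line marks equal differences, and Tdh at 2.53 and 2.55 is not drawn. All points but Cbs and Slc38a2 lie in the lower left, and most lie below the dotted line.

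Genes around the listed ones were mostly without calls in the same fit. Of 14 tested partner factors that can pair or compete with ATF4, none passed and 5 had an unadjusted p under 0.05, with a median of -0.10. Such a p was found for 16.5% of all tested genes, a share to be set beside each list below. Of the 14 partner factors 11 were below 0, against 49.4% of all tested genes. Among the brightest 4148 tested genes the share was 70.4%, and the partner factors were not matched for signal. Cebpd, a C/EBP factor, measured 2.08, 2.29 and 1.81 with Anakinra and 3.02, 2.93 and 2.87 with PBS, a difference of -0.88 ± 0.14 (limma adjusted p = 0.0559), and Atf3 differed by -0.35 ± 0.07 (adjusted p = 0.0900). Of 12 tested genes of the eIF2 kinases, eIF2B and the phosphatase arm, none passed and 1 had an unadjusted p under 0.05, with a median of -0.03. Ppp1r15a, of the phosphatase arm, was not found on the array by name. Eif2ak3, which encodes the kinase PERK, was at 0.29 ± 0.09 and the eIF2B subunit gene Eif2b2 at -0.13 ± 0.06.

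The chaperone branch of the unfolded protein response had no calls. Of its 19 tested genes 2 had an unadjusted p under 0.05, against 16.5% of all tested genes, 15 were above 0, against 50.6% of all, and the median was 0.12. The co-chaperone Dnajc3 was at 0.20 ± 0.07 and the disulfide isomerase Pdia4 at 0.32 ± 0.13. The folate cycle outside the list had a median of -0.13 over 14 genes, none past the threshold and 3 with an unadjusted p under 0.05. The purine enzyme gene Atic was at -0.31 ± 0.10.

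Amino acid transporters outside the list had a median of 0.09 over 18 tested genes, with 0 called and 4 at an unadjusted p under 0.05. Slc7a7, a light chain that pairs with Slc3a2, was at -0.49 ± 0.10, and Slc6a14, a broad amino acid carrier, was at -1.0 ± 0.21. Of 11 tested genes of amino acid sensing by mTORC1 0 were called and 3 had an unadjusted p under 0.05, with a median of -0.07. The GTPase gene Rragd was at -0.81 ± 0.13 and Sesn1 at 0.36 ± 0.10. Of the 20 names on that list 12 were on the array, and Mtor and Rptor were among those not found by name.

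Amino acid breakdown and nitrogen handling held 1 call among 29 tested genes, with a median of -0.06. It was Hal, histidine ammonia-lyase, which makes urocanic acid in the upper epidermis. Hal measured 2.36, 2.43 and 2.32 with Anakinra and 1.20, 1.02 and 1.27 with PBS, and rose by 1.21 ± 0.09 (limma adjusted p = 0.00806; 0.0524 with the slide as a block). Like Tdh, it catalyses the breakdown of an amino acid, and the Anakinra arrays were closely grouped.

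Markers of other cell states and types moved in part with treatment. Of 10 suprabasal differentiation markers, all above background on all 6 arrays, 7 rose and none fell, with a median of 0.77, and 0 were called with the slide as a block. Those with the smallest p were Krt1 and Dsg1a, at 2.34 ± 0.19 and 1.77 ± 0.15 (limma adjusted p = 0.0114 and 0.0135). Their signal, summed over the list and then put on the log2 scale, ran from 9.63 to 9.76 with Anakinra and from 9.22 to 9.32 with PBS. Of 8 basal keratinocyte markers, all above background on all 6 arrays, none passed and 1 had an unadjusted p under 0.05, and the summed signal overlapped, at 10.30 to 10.42 with Anakinra and 10.34 to 10.51 with PBS. Of 7 fibroblast markers 2 rose, Lum and Col3a1, 0 were called with the slide as a block, and the sums were 3.19 to 3.41 with Anakinra and 2.90 to 3.18 with PBS. None of 6 melanocyte markers passed, 2 had an unadjusted p under 0.05, and the sums were 6.14 to 6.21 with Anakinra and 5.90 to 6.12 with PBS. Of 5 tested hair follicle markers Krt79 rose, by 0.85 ± 0.06 (limma adjusted p = 0.00756; 0.0497 with the slide as a block), 2 had an unadjusted p under 0.05, and the sums were 8.79 to 8.86 with Anakinra and 8.76 to 9.02 with PBS. None of 3 tested endothelial markers passed, 2 had an unadjusted p under 0.05, and their sums were 0.75 to 0.99 with Anakinra and 1.07 to 1.16 with PBS, with Cdh5 above background on only 2 arrays. None of 3 tested leukocyte markers passed, 1 had an unadjusted p under 0.05, and the sums were -3.23 to -1.12 with Anakinra and -2.67 to -2.12 with PBS, with Ptprc and Cd3e above background on 2 of the 6 arrays each. Both tested adipocyte markers were without a call, 0 had an unadjusted p under 0.05, and the sums were 2.30 to 2.48 with Anakinra and 2.27 to 2.31 with PBS. The part of any of these shifts in the values of the listed genes was not tested.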

How the data were processed

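Total RNA of 3 Anakinra and 3 PBS cultures was hybridised to 6 one-colour Agilent arrays, grouped by the treatment label and numbered as in the titles. Per the file headers, spots were read with Agilent Feature Extraction 9.5.3.1, whose processed intensity is background-subtracted and detrended within an array and not scaled between arrays; probe positions are on mm8. The authors also deposited log2 values that equal the log2 processed intensity plus 1 constant per array, to within 0.001. Their medians were 5.74, 7.00 and 6.21 for Anakinra 1, 2 and 3 and 5.77, 5.83 and 6.22 for PBS 1, 2 and 3; genes are not centred, and how the constants were set is unknown.

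For the values reported, each array's log2 processed intensity was set relative to its own 75th percentile over non-control probes, after control and outlier-flagged spots had been dropped and spots of a probe averaged. No spot was saturated. Probes had to be well above background on every array of at least 1 group, with 2 or more values per group, and the brightest was kept per gene name. Groups were compared with limma 3.58.1 in R 4.3.3 (lmFit and eBayes, two-sided, Benjamini-Hochberg over 16593 genes), which was tested on simulated data. The labels do not say that cultures were separate animals, so p-values cover the spread between cultures alone, which may be technical, and the number of arrays limits precision.

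The 41 genes, their roles and the further gene lists were chosen with earlier results of these data known. By rule, every array's value is printed for called genes, for 11 core ATF4 genes and for the 5 largest differences each way, and from each pathway list up to 4 called genes, or else the 2 with the smallest p. A gene of the folate list that this rule names is not reported here. Other values and the promoter motifs were chosen after the data were seen. Alternatives varied background correction, scaling, filter, probe rule, naming, source table and array weights, added slide or replicate blocks, and left out arrays or a slide.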

Additional observations from a re-analysis of the deposited data

How the results depend on the processing

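The median difference of the 41 genes stayed below 0 under all 20 alternatives, and 38 or 39 of the 41 were below 0 in each; the calls did not hold as widely. Set against the median of all tested genes, which array medians for scaling moved by -0.32, the list's median was -0.37 in the main setting and ran from -0.53 to -0.23. With array medians the list's median was -0.68, 0 of its genes fell, and over all genes 6 were higher and 42 lower, so 12.5% of calls were higher, against 53.2%. With the slide as a block 0 listed genes were called, and 20 genes were higher and 42 lower in all, or 32.3% higher. Within slide 1 and within slide 2 limma called 0 genes, with 2763 and 583 at an unadjusted p under 0.05, and the list's median within slide 2 was -0.44. With no filter on dim probes 0 listed genes were called in either direction, and over all genes 7 were higher and 29 lower, or 19.4% higher. With probes above background on all 6 arrays 13 listed genes fell, and 318 genes were higher and 260 lower. Normexp background correction gave 11 listed genes that fell. Leaving out 1 array, the count of all genes higher ran from 0 to 103 and of those lower from 4 to 155, 0 or 1 listed genes rose and 0 to 3 fell; 0 listed genes were called without Anakinra 1 or without any single PBS array, while Pck2, Slc7a3 and Stc2 fell without Anakinra 2 and Pycr1 without Anakinra 3. The list's median then ran from -0.41 to -0.32. The difference of Slc38a2 turned positive with quantile normalization (0.06), in the authors' value table (0.04), within slide 2 (0.01), with the mean of its probes (0.10) and without Anakinra 2 (0.14) or PBS 2 (0.01); leaving out 1 array it ran from -0.19 to 0.14. Tdh ran from 2.21 to 2.73 over the settings and Gdf15 from -1.38 to -0.98. A replicate block left 0 genes called, with 1768 at an unadjusted p under 0.05 and 22 of the 41 among them. Same-numbered arrays had deviations from their group means correlating at 0.41, -0.49 and -0.21, and Anakinra 2 with PBS 3 at 0.70. Differences between whole arrays enter these correlations, so they cannot tell whether the numbers pair the cultures. The causes of these changes were not tested.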
